A study of Homo sapiens with 52 samples.

Results

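Knockdown of the cerebral cavernous malformation (CCM) complex was set directly against knockdown of the MEKK3-MEK5-KLF2 cascade in human aortic endothelial cells, and the non-targeting libraries were placed between them. The CCM arm held 6 libraries (2 guides each to CCM2, PDCD10 and ITGB1BP1) and the MEKK3 arm held 5 (2 guides each to MAP3K3 and KLF2, and guide B5 to MAP2K5). With the 4 non-targeting libraries this made 15 of the 52 libraries of the series, chosen by the target named in each library title. Guide A11 to MAP2K5 was left out because MAP2K5 was not lower there: 26.2 TPM (a transcript's share of its library, scaled for length) against a control mean of 24.9 ± 3.97 (SD, n = 4).

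All 15 libraries came from TeloHAEC, an aortic endothelial line immortalized with telomerase, here carrying a doxycycline-inducible dCas9-KRAB-BFP repressor (CRISPR interference, CRISPRi) and sorted for the cells brightest in its BFP tag. The controls therefore carry the repressor too and differ from the knockdowns by the guide. Every library received 1 guide by lentivirus, then blasticidin selection and 2 µg/ml doxycycline for 5 days, and poly-A RNA was measured. The labels do not say that libraries came from separate cultures, so p-values measure only the spread between these libraries, and the 2 libraries of a target share that target.

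The CCM complex is a scaffold at endothelial junctions in which CCM2 joins KRIT1 and PDCD10, and ITGB1BP1 (ICAP1) binds KRIT1. CCM2 is known to bind the kinase MEKK3 (gene MAP3K3) and to restrain it. MEKK3 activates MEK5 (MAP2K5), MEK5 activates ERK5 (MAPK7), and ERK5 acts through MEF2 factors to induce KLF2 and KLF4, transcription factors that endothelium also raises under laminar flow. Inherited loss of CCM genes leads to clusters of leaky, dilated capillaries in the brain. The comparison asks how endothelial expression differs between loss of the restraint and loss of the cascade itself.

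The guides show which promoters the repressor was sent to, with the 10 bases at the 3′ end, next to the NGG motif that Cas9 needs, in capitals. These 4 are shown because the sequences in the labels of one pair appear to be exchanged:
ITGB1BP1 C7: gaaggccgcggCACTCCCACG
ITGB1BP1 G8: gccgcggtatATAAGCCGGC
KLF2 C9: ggacccggggAGAAAGGACG
KLF2 G10: gaagtccgcaACCCGGGGAT
Guide C7 matched the noncoding part of exon 1 of ITGB1BP1 (chr2:9423418-9423437, minus strand, GRCh38), and C9 matched the noncoding part of exon 1 of KLF2 (chr19:16324899-16324918, minus strand). The sequence labelled ITGB1BP1 G8 matched the KLF2 promoter (chr19:16324687-16324706, minus strand), and the sequence labelled KLF2 G10 matched exon 1 of ITGB1BP1 (chr2:9423390-9423409, minus strand). Expression went with the gene names of the titles and not with these 2 sequences. ITGB1BP1 was 9.61 TPM in library G8 and 61.5 in library G10, against 62.5 to 70.7 in the controls. KLF2 was 486 TPM in G8 and 6.12 in G10, against 91.3 to 123. Libraries were grouped by title. Without both libraries 3360 genes differed between the arms, and 3146 of the 3842 earlier calls that were still fitted were kept with their sign.

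A further 4 guides are shown because the knockdown differed between the guides of a target:
PDCD10 D11: gaccgagcagAAGAGGTCTA
PDCD10 G1: gccgctttacgCCACTCGCGT
MAP2K5 B5: gtctgccccacCCGGAGACAC
MAP2K5 A11: gccgaggccgCGCGGACTGG
D11 (chr3:167734747-167734765, minus strand) and G1 (chr3:167734625-167734644, plus strand) both matched noncoding exon 1 sequence of PDCD10. B5 (chr15:67542810-67542829, minus strand) and A11 (chr15:67542757-67542775, minus strand) both matched noncoding exon 1 sequence of MAP2K5. D11 and A11 matched over 19 bases, without their first base, and the other printed guides over 20. The guide labelled CCM2 C2 had no match in the promoter windows and transcripts searched, and the guides not printed here matched their named target.

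Knockdown was read in every library. CCM2, the hub of the complex, was 9.19 TPM in library C2 and 2.62 in F6 against a control mean of 58.8 ± 2.82 (SD, n = 4). PDCD10 was 4.81 in D11 and 15.2 in G1 against 37.2 ± 1.6, and ITGB1BP1 was 8.72 in C7 and 9.61 in G8 against 67.7 ± 3.86. PDCD10 G1 thus kept the largest share of its target, a reduction of 59.1%. In the cascade, MAP3K3 was 2.54 in A4 and 10.7 in C3 against 73.9 ± 2.79, MAP2K5 was 1.27 in B5, and KLF2 was 2.99 in C9 and 6.12 in G10 against 107 ± 13. ITGB1BP1 was itself above every control where other members of the complex were knocked down, at 97 and 88.7 TPM in the CCM2 libraries and 124 and 77.4 in the PDCD10 libraries. It was also above every control in libraries aimed at other genes, at 77.4 and 85.1 TPM in the CDH5 libraries, 76.7 in MESDC1 B3, 76.4 in NFAT5 D4 and 74 in MAP2K5 A11.

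All 16 endothelial markers (PECAM1, CDH5, VWF and others) passed the filter of at least 1 TPM in at least 4 of the 15 libraries, and their summed level was 4460 to 6140 TPM in the CCM arm, 4280 to 4970 in the MEKK3 arm and 4580 to 4810 in the controls. Of 10 epithelial markers KRT8, KRT18 and KRT19 passed, and the list summed to 2630 to 6820, 784 to 991 and 1210 to 1390 TPM in the same order, with KRT14 listed at 0 in all 15 libraries and EPCAM, CDH1 and KRT5 at 0.736 TPM or less. Of 12 fibroblast and mural markers 2 passed (sums of 7.59 to 14.2, 11.1 to 18.3 and 13.4 to 14.3 TPM), and of 9 leukocyte markers CD14 and CD68 passed (58.6 to 223, 39.1 to 63.5 and 56.5 to 70 TPM), with PTPRC at 0.488 or less and HBB at 0. Mitochondrially encoded transcripts held 3.12% to 4.79%, 2.64% to 5.1% and 2.71% to 4.29% of TPM. The part of these shifts in the results was not tested. In bulk RNA, fewer cells of a type and less RNA per cell cannot be told apart. No pair of the 15 libraries was a copy, since at least 18293 symbols differed between any 2.

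The arms differed in 3854 of 13048 genes (29.5%, limma on log2(TPM + 1), adjusted p under 0.05). Higher in the CCM arm were 1253 genes (9.6% of all fitted) and lower were 2601 (19.9%), so 32.5% of the calls were higher. That split rested on the scaling: after rescaling by the median of ratios 1789 were higher and 1602 lower (52.8% higher), and the median over all genes moved from -0.0949 to -0.0135 log2. Among differences of at least 1 log2 the balance was the other way, with 310 genes higher and 179 lower. The libraries of the arms did not overlap for 2031 genes (15.6%). Without both MAP3K3 libraries 2268 genes were called.

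The controls lay nearer to the MEKK3 arm for most of the large differences. On a scale where 0 is the MEKK3 arm mean and 1 the CCM arm mean, the controls had a median place of 0.253 for the 310 higher genes and 0.255 for the 179 lower. They lay between the arm means for 297 of the 310 and 169 of the 179. Against the controls, the 310 genes had a median difference of 1.16 log2 in the CCM arm and -0.409 in the MEKK3 arm, and the 179 had -0.982 and 0.315. As these genes were chosen by the difference between the arms, these values describe where the controls fell and test nothing.

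The CCM arm against the controls gave 2189 called genes (16.8%), 702 higher and 1487 lower, and 59.9% of the calls were higher after the median of ratios against 32.1% before. The same fit gave 11 for the MEKK3 arm against the controls (0.0843%), 1 higher and 10 lower, with 800 genes at an unadjusted p under 0.05. That fit takes 1 spread per gene over all 3 groups, so its p-values for the MEKK3 arm also carry the spread of the CCM libraries. Fitted on its own 9 libraries, the MEKK3 arm gave 151 called genes (39 higher, 112 lower). These 2 comparisons share the same 4 controls. The CCM count was 1209 without control D8, 1338 without control B6, 1435 without control D2 and 1315 without both CCM2 libraries.

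KLF2, the transcription factor at the end of the cascade, had the order CCM arm, controls, MEKK3 arm with no overlap. It was 221 to 754 TPM in the CCM arm (median 604) and stood at 123, 107, 108 and 91.3 in the controls. In the MEKK3 arm it was 5.71 and 14.5 in the MAP3K3 libraries, 16.2 in MAP2K5 B5, and 2.99 and 6.12 in the libraries aimed at KLF2 itself. The lowest CCM library was PDCD10 G1, the one with the weakest knockdown, and a link between these was not tested. The arms differed by 5.91 ± 0.36 log2 (adjusted p = 5.65e-08). This difference and the MEKK3 arm's change from the controls include the 2 libraries aimed at KLF2 itself, so both are partly set by the design. With those 2 left out, KLF2 was still among the genes called both ways from the controls. Against the controls KLF2 changed by 2.29 ± 0.38 log2 (adjusted p = 0.00145) in the CCM arm and by -3.63 ± 0.39 log2 (adjusted p = 0.00111) in the MEKK3 arm. In the fit with 1 group per target, MAP3K3 knockdown alone changed KLF2 by -3.40 ± 0.37 log2 (adjusted p = 0.00044) and MAP2K5 knockdown, with 1 library, by -2.65 ± 0.48 log2 (adjusted p = 0.0342).

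The KLF2 promoter is shown because the cascade is known to act on it through MEF2 factors, and because the guide labelled ITGB1BP1 G8 matched it. The run covers chr19:16324576-16324816 (plus strand, GRCh38.p14, RefSeq), up to the base before the transcript start, with the match to a MEF2-like motif (CTA, any 4 bases, TAG) in capitals:
KLF2 upstream: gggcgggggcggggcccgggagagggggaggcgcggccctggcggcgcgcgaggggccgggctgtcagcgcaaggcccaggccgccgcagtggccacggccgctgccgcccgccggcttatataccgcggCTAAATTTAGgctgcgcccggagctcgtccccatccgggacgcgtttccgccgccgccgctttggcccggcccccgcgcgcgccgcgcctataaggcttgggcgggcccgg
The match spans bases 131 to 140 of this run, and the guide matches bases 112 to 131 on the other strand, so they share 1 base. The motif reads the same on both strands. It was found in 2.84% of 27305 RefSeq windows of 300 bases and in 168 of the 9517 fitted genes with a window (1.77%). Among genes that differed by at least 1 log2 it was in 6 of 208 higher (2.88%) and 0 of 130 lower. The windows of KLF2, AQP1 and LIMS2 hold it, while those of KLF4, PRSS2, PI16, NPPC, TNXB, CCDC69, LYAR and PLEKHF1 do not. ITGB4, THBD, ADAMTS1, C1orf21 and SLCO4A1 had no window to search. A KLF-like motif, CCACNCCC or GGGNGTGG on the other strand, was in 20.4% of the fitted genes' windows, 27.4% of the higher and 26.2% of the lower. A match is a run of letters and not a measured site.

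KLF4, the close relative of KLF2, was higher in the CCM arm but split the MEKK3 arm. It was 25.3 to 117 TPM in the CCM arm (median 62.6) and stood at 10.5, 9.06, 8.41 and 7.07 in the controls. It was 3.3 and 4.87 in the MAP3K3 libraries and 3.66 in MAP2K5 B5, below every control, but 16 and 12.3 in the KLF2 libraries, above every control. The arms differed by 2.94 ± 0.39 log2 (adjusted p = 6.25e-05). MAP3K3 against KLF2 knockdown gave -1.58 ± 0.44 log2 (adjusted p = 0.961), which did not pass, and the MEKK3 arm as a whole was -0.33 ± 0.43 log2 (adjusted p = 0.986) from the controls.

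**Figure D1:**
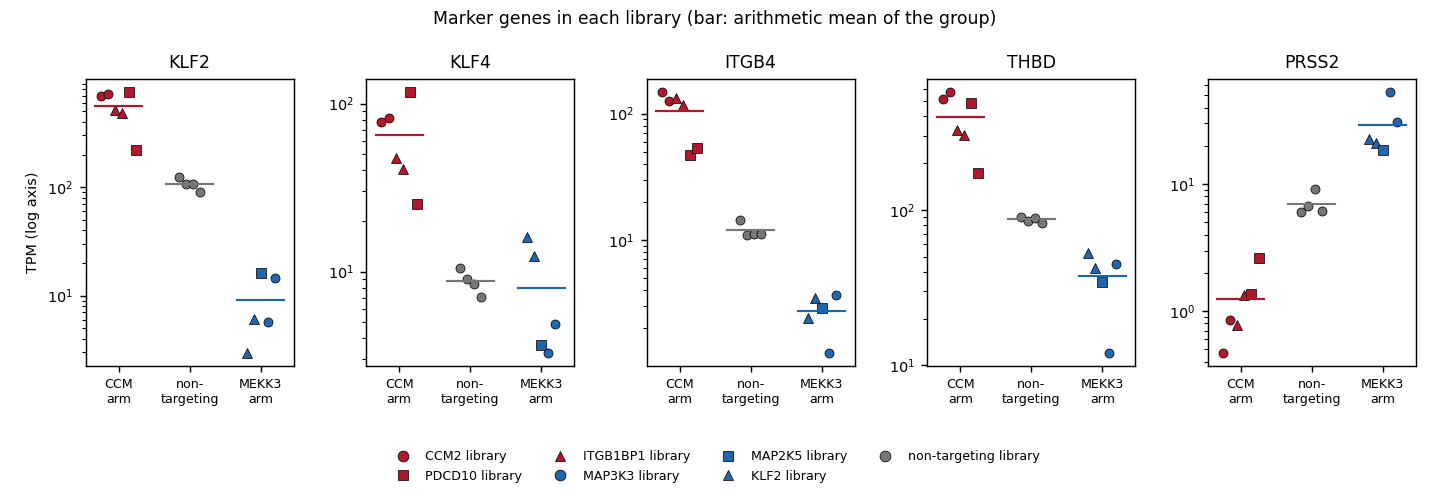
TPM of KLF2, KLF4, ITGB4, THBD and PRSS2 in each library on a log axis, with the shape showing the targeted gene and a bar at the arithmetic mean of each group. The 4 non-targeting libraries lie between the arms for KLF2, ITGB4, THBD and PRSS2, and for KLF4 the libraries aimed at KLF2 lie above the controls at 16 and 12.3 TPM.

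ITGB4, the beta4 integrin that binds laminin, was 47.1 to 148 TPM in the CCM arm (median 121). It was 14.3, 10.9, 11.1 and 11.2 in the controls and 1.28, 3.67, 2.87, 2.4 and 3.46 in the MEKK3 arm, so no group overlapped another. The arms differed by 4.73 ± 0.28 log2 (adjusted p = 5.65e-08). THBD, thrombomodulin, which turns thrombin into an activator of protein C, was 172 to 572 TPM in the CCM arm (median 408). It was 90, 85.2, 89.3 and 82.9 in the controls and 12.1, 45, 34.4, 53.2 and 42.1 in the MEKK3 arm, with no overlap. The arms differed by 3.41 ± 0.33 log2 (adjusted p = 3.5e-06). The MEKK3 arm's difference from the controls of -1.34 ± 0.37 log2 (adjusted p = 0.344) did not pass in this fit. With 1 mean per target THBD was among the genes called both ways from the controls. It was not among them in the 24 libraries with 1 group per target, or where each comparison was fitted on its own groups.

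PRSS2, a trypsinogen, ran the other way. It was 0.472 to 2.63 TPM in the CCM arm (median 1.1), 6.03, 6.73, 9.12 and 6.12 in the controls, and 53, 30.9, 18.7, 22.8 and 21.1 in the MEKK3 arm, again with no overlap. The arms differed by -3.72 ± 0.25 log2 (adjusted p = 1.8e-07). PRSS2 has near-identical copies, and PRSS3, of the same family, was higher in the CCM arm by 1.08 ± 0.15 log2 (adjusted p = 7.26e-05), so the split of reads between them is uncertain. KLF4, ITGB4, THBD and PRSS2 each gave p = 0.00433 in an exact two-sided permutation test over the 6 and 5 libraries, and 0.00433 after adjustment over these 4, the smallest p that 462 regroupings allow. This test takes the 2 libraries of a target as independent, and exchanging whole targets, 3 against 3, could not reach p under 0.05. The p-value restates that the arms did not overlap for these 4 genes. ITGB4 and PRSS2 were also among the largest rises and falls between the same libraries, so for them it is no independent evidence. KLF4 and THBD are members of gene lists chosen with earlier results of these data known, so the same holds for them.

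Of all fitted genes, 9 moved both ways from the controls (0.069%): 8 were called higher in the CCM arm and lower in the MEKK3 arm, and PRSS2 was the reverse. Beside KLF2, itself a target of the MEKK3 arm, and ITGB4 these were SLCO4A1, LIMS2, C1orf21, CCDC69, LYAR and PLEKHF1. LIMS2 (PINCH2), an adaptor at integrin adhesions, was 182 to 311 TPM in the CCM arm, 75.7 to 88.6 in the controls and 26.4 to 43.4 in the MEKK3 arm. Against the controls it changed by 1.49 ± 0.16 log2 (adjusted p = 0.000114) and -1.13 ± 0.16 log2 (adjusted p = 0.0158). SLCO4A1, an organic anion transporter, was 49.2 to 102, 25.7 to 36.6 and 8.35 to 17.1 TPM in that order, C1orf21 was 32.5 to 60.9, 18.6 to 24.6 and 5.93 to 8.66, and CCDC69 was 92.8 to 158, 57.7 to 79.3 and 34.1 to 46.2. For all 9 genes no group overlapped another.

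By ranges alone, all CCM libraries lay above all controls and all controls above all MEKK3 libraries for 156 genes (1.2%), and the reverse order held for 71 (0.544%). The count of 9 turned on single libraries. It was 1 without control D8, 2 without control B6, D2 or F4, 3 without MAP3K3 C3, 4 without ITGB1BP1 G8, KLF2 G10, MAP2K5 B5 or MAP3K3 A4, 5 without CCM2 C2 or F6, and 16 without PDCD10 G1. With MAP2K5 A11 added to the MEKK3 arm it was 0, since limma then called 0 genes for the MEKK3 arm against the controls, with 654 at an unadjusted p under 0.05. It was 94 where each comparison was fitted on its own groups. With both KLF2 libraries left out, 5 genes moved both ways: C1orf21, KLF2, LIMS2, PRSS2 and TEAD4.

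The largest rise in the CCM arm over the MEKK3 arm was that of PI16, a secreted peptidase inhibitor, at 7.44 ± 0.49 log2 (adjusted p = 1.8e-07). It was 57.7 to 630 TPM in the CCM arm (median 282), 1.08 to 3.12 in the controls and 0.383 or less in the MEKK3 arm, and the added 1 TPM makes the change of such low genes look smaller than it was. PTPN5, a tyrosine phosphatase that acts on MAP kinases, was 13.1 to 320 TPM in the CCM arm (median 52.4), 0.656 to 0.858 in the controls and listed at 0 in 3 of 5 MEKK3 libraries. AQP1, the water channel of endothelium, was 36.2 to 349 TPM in the CCM arm, 6.34 to 9.23 in the controls and 1.71 to 2.59 in the MEKK3 arm, a difference between the arms of 5.39 ± 0.41 log2 (adjusted p = 4.13e-07).

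NPPC, the C-type natriuretic peptide, was 20.8 to 304 TPM in the CCM arm, 2.81 to 7.8 in the controls and 0.491 to 1.79 in the MEKK3 arm. TNXB, tenascin-X, was 21.8 to 131, 3.51 to 5.2 and 0.251 to 1 TPM. ADAMTS1, a metalloprotease that cleaves versican, was 47.1 to 302, 16.6 to 23.8 and 5.94 to 10.3 TPM, a difference between the arms of 4.43 ± 0.34 log2 (adjusted p = 4.32e-07). In these genes the controls lay apart from both arms. CLEC3B (tetranectin), ACP5 (an acid phosphatase), LCN6 (a lipocalin) and IGFBP5 (an insulin-like growth factor binding protein) rose by 4.97, 4.35, 4.02 and 3.82 log2. For CLEC3B, ACP5 and IGFBP5 the controls overlapped the MEKK3 arm.

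**Figure D2:**
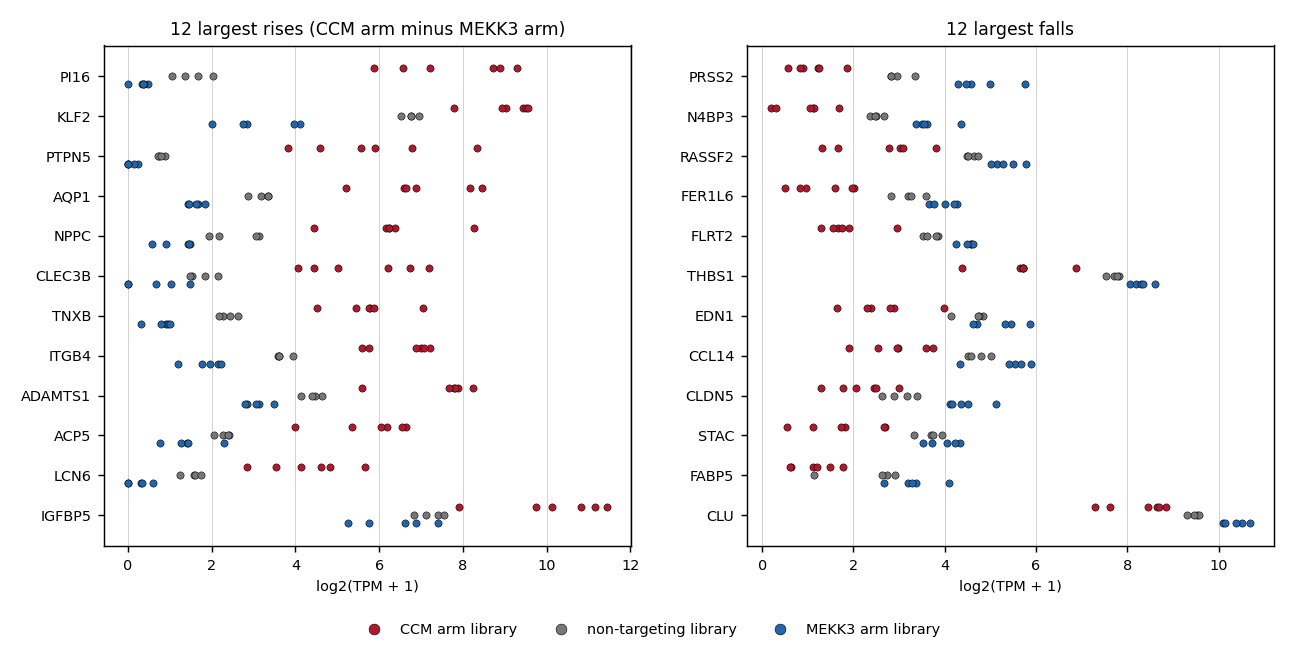
log2(TPM + 1) of the 12 largest rises and 12 largest falls of the CCM arm against the MEKK3 arm, 1 point per library. Only called genes whose CCM and MEKK3 libraries do not overlap were picked, at a mean of 5 TPM or more in the higher arm. The controls lie between the arms or overlap one of them, except for FABP5, where they overlap both.

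Among the largest falls were EDN1, THBS1 and CLDN5. EDN1, endothelin, a vasoconstrictor, was 2.1 to 14.9 TPM in the CCM arm, 16.7 to 27.5 in the controls and 23.6 to 57.7 in the MEKK3 arm, a difference of -2.53 ± 0.33 log2 (adjusted p = 4.67e-05). THBS1, thrombospondin, an inhibitor of angiogenesis, was 19.7 to 117, 183 to 224 and 266 to 388 TPM (-2.62 log2). CLDN5, claudin-5, a tight junction protein of endothelium, was 1.45 to 7.04, 5.19 to 9.5 and 16.3 to 33.8 TPM (-2.28 log2). The controls overlapped the MEKK3 arm for EDN1 and the CCM arm for CLDN5, and stood apart from both for THBS1. For CLDN5 the MEKK3 arm was 1.43 ± 0.29 log2 (adjusted p = 0.111) from the controls, which did not pass in this fit but did with 1 mean per target.

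N4BP3, RASSF2, FER1L6, FLRT2 and CLU fell by 2.77, 2.74, 2.67, 2.66 and 2.11 log2 and had controls apart from both arms. CLU, clusterin, an extracellular chaperone, was 156 to 462 TPM in the CCM arm, 632 to 754 in the controls and 1100 to 1650 in the MEKK3 arm. FLRT2, a guidance receptor, was 1.43 to 6.7, 10.5 to 13.4 and 18 to 23.6 TPM. CCL14, a chemokine, STAC, an adaptor protein, and FABP5, a fatty acid binding protein, fell by 2.42, 2.21 and 2.19 log2, with controls that overlapped the MEKK3 arm and, for FABP5 in control F4 (1.21 TPM), the CCM arm too.

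A set of genes was called between the arms and in the CCM arm against the controls. For these genes the MEKK3 arm was not called and its mean stayed within 0.25 log2 of the controls. At a mean of 5 TPM or more in the highest group 1472 of 13048 fitted genes met this, 396 higher and 1076 lower. With 11 calls in the MEKK3 arm, the count says little of that arm. PTGDS, prostaglandin D2 synthase, was 1.13 to 10.8 TPM in the CCM arm and at most 0.262 in any other of the 15 libraries, and KCNN4, a calcium-activated potassium channel, 2.67 to 19 against at most 0.998. LCN10, a lipocalin, was 2.96 log2 above the controls. CHST15, a chondroitin sulfotransferase, was 9.83 to 40.5 TPM against at least 55.2, and SMAD1, a transducer of BMP signals, 18.5 to 69.2 against at least 96.1. EFCC1 and PIFO were -1.44 and -1.39 log2 from the controls. The converse, with the same cut at 5 TPM, held for 2 of the 13048 genes. UHRF2, a ubiquitin ligase, was 56.1 to 67.9 TPM in the MEKK3 arm against at least 88.3 elsewhere, and NTSR1, the neurotensin receptor, 18.6 to 22.9 against at least 27.4.

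The pathway lists held 323 genes, of which 263 were fitted, and 78 of these were higher and 55 lower in the CCM arm. They are described beside the shares of 9.6% higher and 19.9% lower and the median of -0.0949 log2 over all genes. Of the CCM complex and its partners, 8 of 13 fitted genes were higher and 0 lower (median 0.26 log2). The list holds CCM2, PDCD10 and ITGB1BP1, which guides of the CCM arm repress directly, so its count and median are partly set by the design. These 3 targets differed by -0.89, -0.67 and -0.40 log2 and were not called. HEG1, the transmembrane anchor of the complex, was 38.1 to 164 TPM in the CCM arm, 22.2 to 25.1 in the controls and 17.8 to 21.5 in the MEKK3 arm. CCM2L, the CCM2 paralog, was 57.8 to 133, 48.3 to 58.9 and 22.3 to 36.8, and TLNRD1, a partner of CCM2, was 42.3 to 94.1, 34.3 to 38.5 and 24.7 to 29.6. The kinases STK24 and STK25, which bind PDCD10, and RAP1A, RAP1B and RASIP1 were higher by 0.39 log2 or less. KRIT1 was not called, at means of 15.8 and 16 TPM in the arms.

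In the cascade 4 of 10 genes were higher and 0 lower (median 0.77 log2): KLF2, KLF4, MAPK7 and MEF2A. The list holds MAP3K3, MAP2K5 and KLF2, which guides of the MEKK3 arm repress directly, so its count and median are partly set by the design. MAPK7, which encodes ERK5, was 21.3 to 69.1 TPM in the CCM arm, 19.3 to 23.5 in the controls and 17.1 to 20.2 in the MEKK3 arm, with a difference between the arms of 1.00 ± 0.21 log2 (adjusted p = 0.00224). MEF2A, a MEF2 factor, was 29 to 48, 23.3 to 31.8 and 20.2 to 23 TPM, with 0.83 ± 0.11 log2 (adjusted p = 5.93e-05). For both genes the arms did not overlap, and the controls overlapped the CCM arm and, for MAPK7, the MEKK3 arm too.

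Among genes linked to KLF2 in vasoprotection 17 of 24 were higher and 4 lower (median 1.14 log2). NOS3, the endothelial nitric oxide synthase, was 145 to 393 TPM in the CCM arm, 119 to 128 in the controls and 67.5 to 102 in the MEKK3 arm. PLAT, the tissue plasminogen activator, was 1040 to 4920, 532 to 609 and 301 to 403 TPM. Lower were TFPI, ADM, EDN1 and ANGPT2, of which KLF2 is known to lower EDN1 and ANGPT2. In coagulation and fibrinolysis 7 of 18 were higher and 7 lower, against 8 and 5 after the median of ratios. Higher were THBD, PLAT, PLAU, PLAUR, SERPINE2, ANXA2 and PRSS3, and among the lower were TFPI, TFPI2, VWF, F2R, F2RL3 and PRSS2. The higher count thus includes PRSS3 and the lower count PRSS2, trypsinogen genes whose split of reads is uncertain. F2RL3, a thrombin receptor, was 4.56 to 21.6 TPM in the CCM arm, 31.9 to 36.8 in the controls and 40.1 to 48.1 in the MEKK3 arm, while VWF overlapped between the arms (16 to 71.7 and 44.9 to 154).

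Of the ADAMTS proteases and their list, 4 of 8 were higher (ADAMTS1, ADAMTS4, ADAMTS6 and ADAMTSL1) and THBS1 was lower. In the BMP and TGF-beta list 3 of 13 were higher and 4 lower, and the ID genes, which BMP signals induce, split. ID1 was 133 to 336 TPM in the CCM arm, 73.8 to 92.5 in the controls and 29.5 to 56.7 in the MEKK3 arm, with 2.30 ± 0.21 log2 (adjusted p = 2.37e-06) between the arms. ID3 was 8.47 to 23.6, 37 to 46.6 and 42.1 to 67.7 TPM, with -1.89 ± 0.19 log2 (adjusted p = 5.68e-06). Of 14 Notch genes 5 were lower and 0 higher, against 4 lower after the median of ratios. NRARP, HES1 and DLL4 differed by -0.84, -0.82 and -0.70 log2, and NOTCH4 (-0.49 ± 0.18 log2 (adjusted p = 0.048)) lost its call under 25 of the alternatives.

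Of 16 VEGF, angiopoietin and tip cell genes 5 were higher and 8 lower. KDR, the main VEGF receptor, was 33.2 to 60.1 TPM in the CCM arm, 76.5 to 94.1 in the controls and 80.2 to 110 in the MEKK3 arm. VEGFC, the lymphatic growth factor, was 5.24 to 40.6, 3.06 to 5.04 and 2.46 to 4.74 TPM, and ESM1, a tip cell proteoglycan, 20 to 107, 7.63 to 13.9 and 5.96 to 12.1. PDGFB, the signal that recruits pericytes, fell by 1.90 log2. Of 16 junction genes 6 were lower (CDH5, CLDN5, TJP1, CTNNB1, CTNND1 and CDH2) and 2 higher, among them CGNL1. CDH5, the vascular cadherin, was 255 to 365 TPM in the CCM arm, 345 to 378 in the controls and 381 to 483 in the MEKK3 arm. Among 16 endothelial identity genes 5 were higher, among them the angiopoietin receptor TEK (72.8 to 189 against 47.4 to 61.6 TPM), and 6 lower, against 6 and 4 after the median of ratios.

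The mesenchymal list had 3 of 14 higher and 3 lower, and its median of -0.0337 log2 became 0.0333 after the median of ratios. SNAI2, a repressor of cadherins, was 3.37 to 31.4 TPM in the CCM arm, 0.644 to 1.34 in the controls and 0.167 to 1.03 in the MEKK3 arm. S100A4 was 20.8 to 47.2, 7.77 to 12.7 and 3.12 to 6.88 TPM, while CDH2, the neural cadherin, and FN1, fibronectin, fell by 1.06 and 0.78 log2. Of 14 integrins 4 were higher (ITGB4, its partner ITGA6, ITGA3 and ITGB2) and 3 lower (ITGA2, ITGA10 and ITGAV). Of 19 actin, SRF and YAP genes 3 were higher and 5 lower, against 3 and 3 after the median of ratios, the largest being MYL9, a myosin light chain, at -0.87 log2. Immediate early and MAPK feedback genes gave 4 higher and 4 lower of 16. DUSP1, a MAP kinase phosphatase, was 95.5 to 318 TPM against 46.7 to 50.5, and EGR1, an early growth response factor, 0.0475 to 0.475 against 1.88 to 2.43.

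Leukocyte adhesion genes gave 3 higher and 2 lower of 12. ICAM1, the adhesion molecule for leukocytes, was 141 to 290 TPM in the CCM arm and 94.8 to 150 in the MEKK3 arm, while CCL2, a monocyte chemokine, was 17.4 to 69 against 114 to 207. Lymphatic, venous and arterial genes gave 5 higher and 3 lower of 9, with the arterial factor SOX17 at 8.13 to 22.1 against 30.8 to 48.4 TPM. In the cell cycle list 3 of 23 were higher (TK1, AURKA and E2F1) and 0 lower, the interferon list gave 2 higher and 2 lower of 16 (2 and 1 after the median of ratios), and 0 of the 8 mitochondrially encoded genes were called (median 0.14 log2).

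**Figure D3:**
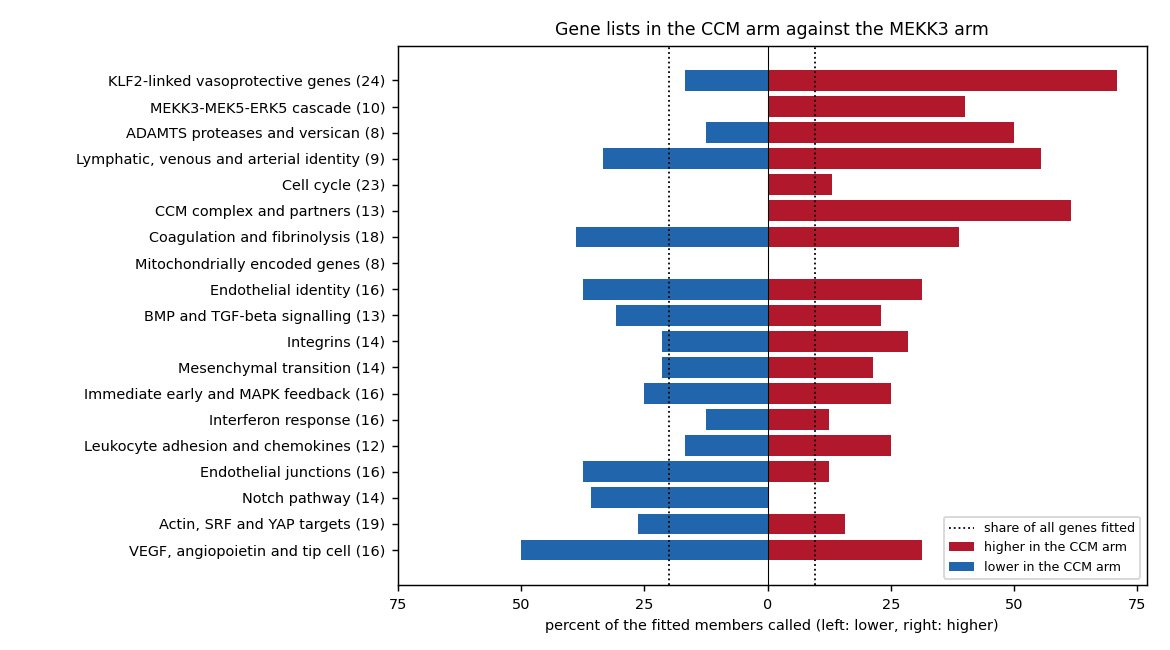
Percent of the fitted members of each gene list called higher (right) or lower (left) in the CCM arm against the MEKK3 arm, with the number fitted in brackets, for the lists with at least 8 fitted genes. Dotted lines mark the shares over all genes, 9.6% higher and 19.9% lower. The cascade list includes MAP3K3, MAP2K5 and KLF2, which are targets of the MEKK3 arm. The CCM complex list includes CCM2, PDCD10 and ITGB1BP1, which are targets of the CCM arm.

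The knockdowns of the CCM arm also differed among themselves. CPSF3, the endonuclease that cleaves pre-mRNA and histone mRNA at the 3′ end, was 2.69 and 3.43 TPM in the ITGB1BP1 libraries and 20 to 29.4 in the 22 other CRISPRi libraries. ITGB1BP1 and CPSF3 lie on opposite strands with starts 21 bases apart in GENCODE 29, and guide C7, printed above, falls in the promoter window of CPSF3 too. Histone genes and RCC1, an exchange factor for the GTPase Ran, stood apart in the same 2 libraries. HIST1H1C was 24.2 and 23.6 TPM there and 1.86, 3.1, 3.21 and 3.65 in the other CCM libraries, HIST1H2AC was 20.2 and 10.5 against 0.973 to 1.74, and RCC1 was 154 and 151 against 32.4 to 63.1. What goes with CPSF3 and what with ITGB1BP1 cannot be told apart in these libraries. PDCD10 also has a neighbour within 1000 bases, SERPINI1, at 0.084 and 0.31 TPM in the PDCD10 libraries and 0.496 to 2.76 in the controls.

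Other genes took opposite sides of the controls within the CCM arm. TAGLN, a smooth muscle actin-binding protein, was 119 and 105 TPM in the CCM2 libraries, 41.7 and 62.4 in the PDCD10 libraries and 17 and 13 in the ITGB1BP1 libraries, against 18.5 to 22.4 in the controls. CCM2 knockdown exceeded ITGB1BP1 knockdown by 2.83 ± 0.30 log2 (adjusted p = 7.66e-05). AGPAT2, an enzyme of phospholipid synthesis, was 80.6, 79.4, 85.6 and 50.5 TPM in the CCM2 and PDCD10 libraries and 15.1 and 14.2 in the ITGB1BP1 libraries, with controls from 34.1 to 41.6. PDCD10 exceeded ITGB1BP1 knockdown by 2.09 ± 0.20 log2 (adjusted p = 2.75e-05).

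Of the genes higher with CCM2 than with PDCD10 guides, PTPN5 had the largest difference, at 110 and 320 TPM against 23.1 and 13.1, a difference of 3.36 ± 0.34 log2 (adjusted p = 0.000197). NTS, neurotensin, was 16.5 and 24.6 TPM with CCM2 guides, 0.792 and 2.05 with PDCD10 guides and 0.906 to 2.48 in the controls. ACKR1, the venular chemokine receptor, was 10 and 16.6 against 1.52 and 1.12 TPM. SPHK1, which makes sphingosine-1-phosphate, was lower with CCM2 guides, 7.37 and 5.28 TPM against 39.6 and 18.3, with 14.2 to 18 in the controls. ITGB4 was higher with CCM2 than with PDCD10 guides by 1.43 ± 0.27 log2 (adjusted p = 0.013), while KLF2 (0.79 ± 0.43 log2 (adjusted p = 0.524)) and THBD (0.91 ± 0.43 log2 (adjusted p = 0.436)) did not pass.

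In a fit of 24 libraries with 1 group per target, 157 of 13421 genes differed between CCM2 and PDCD10 (1.17%), 148 between CCM2 and ITGB1BP1 (1.1%) and 183 between PDCD10 and ITGB1BP1 (1.36%). These counts turned on single libraries. CCM2 against PDCD10 gave 646 without PDCD10 G1, 373 without D11, 71 without CCM2 C2 and 29 without F6. CCM2 against ITGB1BP1 gave 80 without CCM2 C2, 41 without F6, 48 without ITGB1BP1 C7 and 54 without G8. PDCD10 against ITGB1BP1 gave 1142 without PDCD10 G1, 15 without ITGB1BP1 C7 and 83 without G8. A library left alone in its group was assumed to vary like the other groups.

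**Figure D4:**
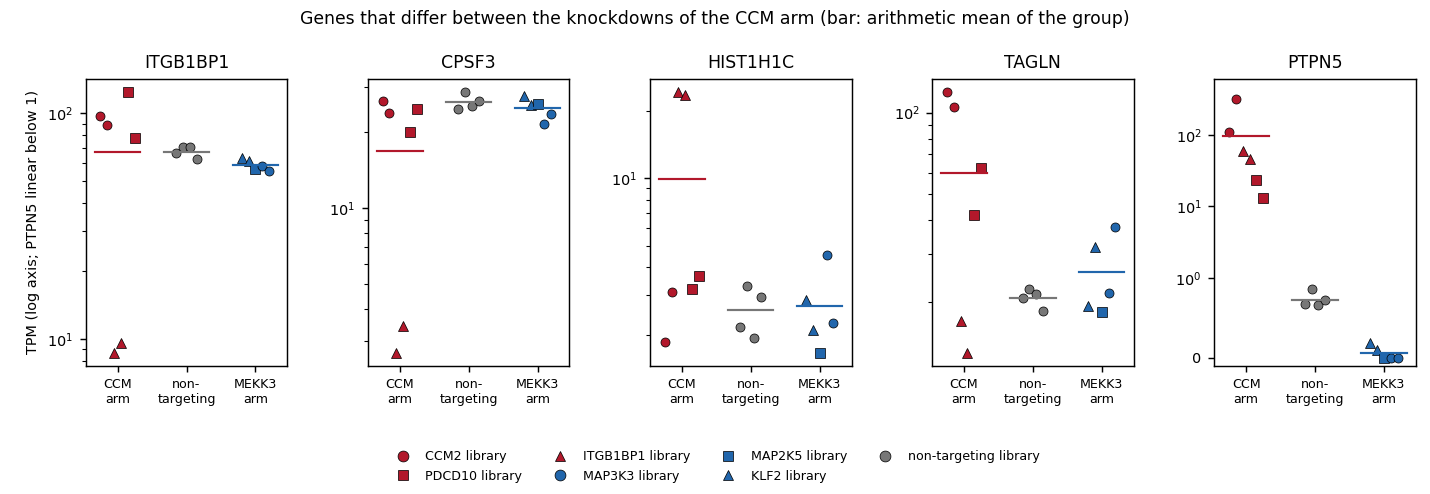
TPM of ITGB1BP1, CPSF3, HIST1H1C, TAGLN and PTPN5 in each library, with the shape showing the targeted gene and a bar at the arithmetic mean of each group. The ITGB1BP1 libraries stand apart at 2.69 and 3.43 TPM for CPSF3 and at 24.2 and 23.6 for HIST1H1C.

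Within the MEKK3 arm 2 genes differed between MAP3K3 and KLF2 knockdown (0.0149%): MAP3K3 itself and SPCS2P4, a pseudogene whose reads may not be told from those of its parent gene. The count was 14 without KLF2 G10 and 13 without MAP3K3 C3, and 617 genes had an unadjusted p under 0.05. MAP3K3 A4, the library with the lower MAP3K3 level, held the extreme value of the MEKK3 arm for THBD (12.1 TPM), ITGB4 (1.28) and PRSS2 (53). Other genes were lowest elsewhere, such as SLCO4A1 in MAP2K5 B5 (8.35 TPM), ADAMTS1 in MAP3K3 C3 (5.94) and AQP1 in KLF2 C9 (1.71).

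Each library was placed on the 489 genes that differed by at least 1 log2 between the arms. In the CCM libraries 78.5% (PDCD10 G1) to 97.3% (CCM2 F6) of them lay beyond all 4 controls toward the CCM side, and in the MEKK3 libraries 63.8% (KLF2 G10) to 78.5% (MAP3K3 A4) lay beyond them toward the MEKK3 side. These libraries chose the genes, so their places are a description. Guide A11 to MAP2K5, which took no part, had 22.7% toward the CCM side and 18.8% toward the MEKK3 side. A control set against the other 3 had 18.2% to 28.8% and 18.4% to 36%. A library falls beyond 3 controls more readily than beyond 4, so these shares are not a like baseline.

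**Figure D5:**
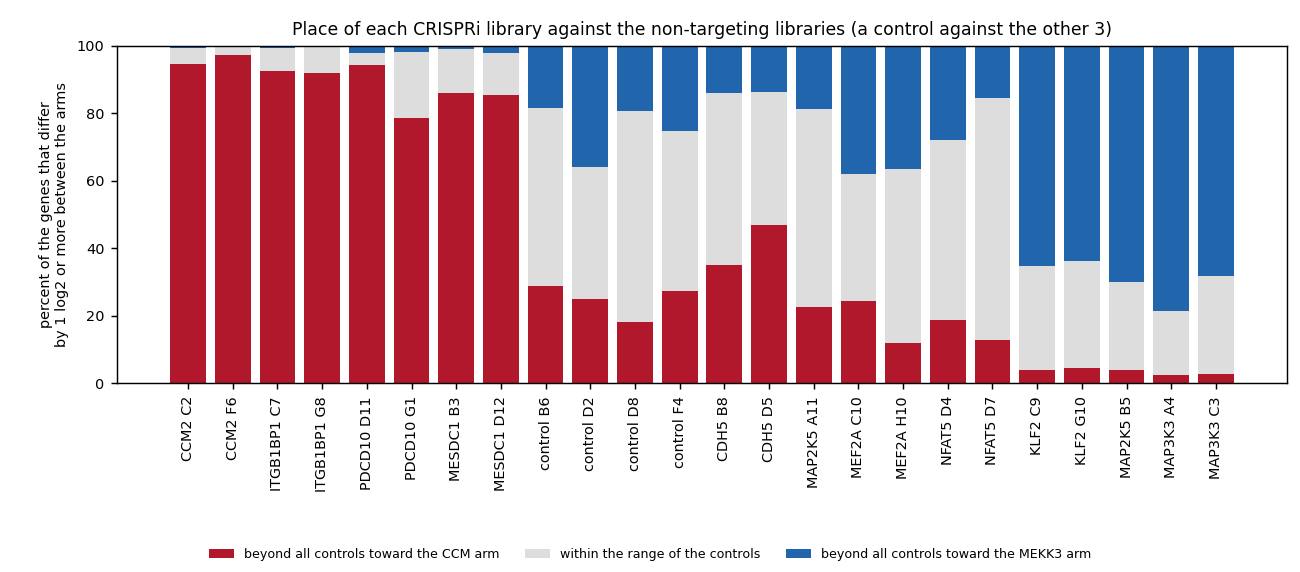
Percent of the 489 genes in each CRISPRi library that lie beyond all controls toward the CCM arm, within the range of the controls, or beyond them toward the MEKK3 arm, with each control set against the other 3. PDCD10 G1 is the CCM library with the smallest share toward the CCM side (78.5%), and MAP2K5 A11 has 22.7% and 18.8%.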

How the data were processed

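The authors deposited 1 table of TPM by gene symbol, per the file headers. Bowtie2, kallisto and the build hg19 are named in the submitters' processing notes, without versions or roles. TPM hold no read numbers, so how deeply a library was sequenced cannot be read from them. They are shares, so a rise in abundant genes lowers the others.

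From the deposited TPM, log2(TPM + 1) was computed for the 15 libraries. Genes at 1 TPM or more in at least 4 libraries (13048) were fitted as 3 groups with limma 3.58.1 in R 4.3.3 (trend, two-sided, Benjamini-Hochberg over all genes, 12 residual degrees of freedom). Targets were compared in 24 CRISPRi libraries with 1 group per target (13421 genes). The fit was run on simulated data with independent noise per library and equal spread in every group. That cannot test the effect of shared targets or of unequal spread. Alternatives changed the pseudocount, filter, scaling, shrinkage, replicate unit and libraries. Guides came from the labels and promoter windows (250 bases before to 50 after a start) from RefSeq, matched also to GENCODE 29 transcripts (Python 3.11.15). Named genes were the targets, the markers, the 12 largest rises and falls, the leading genes moved both ways or in 1 arm, and up to 4 called genes per list. The rises and falls were taken from called genes whose arms did not overlap. They and the leading genes moved both ways needed a mean of 5 TPM or more in the higher arm. The genes in 1 arm needed it in the highest group, which could be the controls. Genes that differed within the CCM arm, NOS3, CDH5, KRIT1, PRSS3, LYAR, PLEKHF1, TEAD4 and list members named without values were chosen after their values were seen. Members and lists were chosen with earlier results of these data known. Some genes that the rule names are not reported here.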

Additional observations from a re-analysis of the deposited data

Results flagged for a closer look

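Over 30 genes and 89 groups of libraries, 8 groups held a library far from the others of its group (Dixon's test), where chance gives about 1 in 20. In the CCM arm, PDCD10 G1 was lowest for KLF2 (221 TPM) and ADAMTS1 (47.1 TPM) and highest for FLRT2 (6.7 TPM), each time on the side of the controls. G1 is also the CCM library with the most of its target left. Other genes lay nearer the controls in D11, such as ITGB4 (47.1 TPM against 53.3 in G1) and SLCO4A1 (49.2 against 69). Whether these levels follow the knockdown was not tested. In the MEKK3 arm, KLF2 C9 was listed at 0 TPM for PI16 and MAP3K3 A4 was highest for N4BP3 (19.4 TPM). Among the controls, B6 was highest for ITGB4 (14.3 TPM) and lowest for EDN1 (16.7 TPM), and F4 was lowest for FABP5 (1.21 TPM).

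ITGB4 differed between knockdowns of the CCM arm in limma's test over all genes. It was 1.43 log2 higher with CCM2 than with PDCD10 guides (adjusted p = 0.013), with both CCM2 libraries above both PDCD10 libraries, and PDCD10 minus ITGB1BP1 guides gave -1.29 log2 (adjusted p = 0.0243).

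A signal appeared in libraries outside the comparison. The MESDC1 libraries B3 and D12 lay beyond all controls toward the CCM side for 86.1% and 85.3% of the 489 genes that separated the arms, and toward the MEKK3 side for 0.818% and 2.04%.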

How the results depend on the processing

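The arm comparison and the 5 markers kept direction and call under the alternatives, except that the count of lower genes became 1602 after the median of ratios, and that 2268 genes (1410 lower) were called without both MAP3K3 guides. Of 3515 values of 107 named genes under the alternatives, 3435 kept direction and call, 68 lost the call, 6 gained it and 6 changed sign. The 6 were targets whose own libraries were left out: CCM2 0.2802 log2 without both CCM2 guides, ITGB1BP1 0.6851 without both of its guides, 0.04816 without C7, 0.02285 without G8 and 0.038 without ITGB1BP1 G8 and KLF2 G10, and MAP3K3 -0.2856 without both of its guides.

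The counts for the MEKK3 arm against the controls (11) and for genes moved both ways (9) were the least stable. They were 6 and 3 with no filter, 5 and 5 after the median of ratios, 5 and 4 with robust shrinkage, 29 and 27 with 1 mean per target, 61 and 44 in the 24 libraries, 0 and 0 with MAP2K5 A11 put in (654 at an unadjusted p under 0.05 for limma's MEKK3 comparison), 52 and 47 without PDCD10, 3 and 3 without ITGB1BP1, 1 and 1 without MAP3K3, 6 and 5 without KLF2, 5 and 4 without MAP2K5, and 3 and 3 without ITGB1BP1 G8 and KLF2 G10. Fitted on the 2 groups compared, an alternative added after seeing the data like that last pair, they were 151 and 94, and the CCM arm against the controls gave 1333. That count was 1315 without CCM2.

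Leaving out 1 library at a time gave 3182 to 4297 genes for the arms (1071 to 1454 higher, 2098 to 2843 lower), 1209 to 2946 for the CCM arm and 1 to 18 for the MEKK3 arm against the controls, and 1 to 16 moved both ways; for ITGB1BP1 between the arms the range was -0.69 to 0.04816 log2. Between targets it gave 29 to 646 for CCM2 and PDCD10, 41 to 80 for CCM2 and ITGB1BP1, 15 to 1142 for PDCD10 and ITGB1BP1, and 2 to 14 for MAP3K3 and KLF2. MAP3K3 and KLF2 differed in 1 gene at a pseudocount of 0.1. On only their own 4 libraries, limma called 0 (641 at an unadjusted p under 0.05), 2 (1469), 0 (820) and 0 (764) genes in the same order. No paired analysis was possible because the knockdown libraries carry a guide name and no replicate number. Depth is not given by TPM, so the precision of low genes is unknown.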

Other observations

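The MESDC1 libraries (the older name of TLNRD1, a partner of CCM2), which took no part in either arm, carried KLF2 at 308 and 220 TPM, KLF4 at 23.2 and 21.7, ITGB4 at 79.5 and 72.7, THBD at 240 and 187 and PRSS2 at 0.991 and 0. All of these lay beyond the controls toward the CCM side. Against the controls ITGB4 rose by 2.59 ± 0.23 log2 (adjusted p = 1.46e-05) and PRSS2 changed by -2.49 ± 0.27 log2 (adjusted p = 0.000166), while KLF2 (1.28 ± 0.37 log2 (adjusted p = 0.153)), KLF4 (1.28 ± 0.38 log2 (adjusted p = 0.167)) and THBD (1.28 ± 0.37 log2 (adjusted p = 0.156)) did not pass.

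The MEF2A libraries (MEF2A is a MEF2 factor, the family through which ERK5 acts) lay beyond the controls toward the MEKK3 side for 38% and 36.4% of the 489 genes and toward the CCM side for 24.5% and 11.9%. A control had up to 36% and 28.8%, but against the other 3, beyond which a library falls more readily than beyond 4. KLF2 in the MEF2A libraries was 87.1 and 69 TPM, and its difference from the controls was -0.46 ± 0.37 log2 (adjusted p = 0.923). The CDH5 libraries had 35% and 47% toward the CCM side and 13.9% and 13.7% toward the MEKK3 side.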
